A study of Mus musculus with 295 samples.

Results

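Gbp2b and Gbp2 are neighbouring members of the guanylate-binding protein family on mouse chromosome 3. They were 2 of the 11454 named genes measured in the adipose tissue of 295 F2 mice. Gbp2b was chosen by its probe, 10024404217, and Gbp2 by its symbol, and 1 probe of each was measured on all 295 arrays. The choice was made from the values of these arrays, so the distributions of the 2 genes are described and not tested.

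The mice were the second-generation (F2) offspring of a cross between the inbred strains C57BL/6J and C3H/HeJ, and both strains carried the ApoE null background. Both females and males were included, and from 8 to 24 weeks of age all were given Western-type food rich in fat. Each array compared the Cy3-labelled RNA of 1 mouse with a Cy5-labelled pool made from equal portions of all the RNAs. The labels give no sex, genotype or other group per mouse, so the 295 mice formed 1 group, and covariation over mice was tested rather than a difference between groups.

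Guanylate-binding proteins are large GTPases that interferons induce strongly, above all interferon gamma. They act in cell-autonomous defence, gathering on the membranes of vacuoles that hold intracellular pathogens and on the pathogens themselves. In adipose tissue interferon gamma comes mainly from T cells and natural killer cells. Interferons act on such genes through short promoter motifs, the interferon-stimulated response element and the gamma-activated site.

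The sequences before the starts of Gbp2b, Gbp2 and their neighbour Gbp3 are shown because these genes moved together inside the Gbp2b classes described further on. They are the 250 bases before each gene's first start in RefSeq's C57BL/6J assembly GRCm38.p6, written 5′ to 3′ on the gene's strand. Capitals mark matches to the core of the interferon-stimulated response element, searched on both strands as GAAA, any 2 bases and GAAA, or its complement TTTC, any 2 bases and TTTC.
Gbp2b, chr3:142594597-142594846, plus strand: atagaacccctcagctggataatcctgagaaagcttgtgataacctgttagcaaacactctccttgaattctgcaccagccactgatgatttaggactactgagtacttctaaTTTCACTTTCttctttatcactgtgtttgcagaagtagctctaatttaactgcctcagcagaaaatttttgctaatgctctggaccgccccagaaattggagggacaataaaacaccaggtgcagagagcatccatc
Gbp2, chr3:142620413-142620662, plus strand: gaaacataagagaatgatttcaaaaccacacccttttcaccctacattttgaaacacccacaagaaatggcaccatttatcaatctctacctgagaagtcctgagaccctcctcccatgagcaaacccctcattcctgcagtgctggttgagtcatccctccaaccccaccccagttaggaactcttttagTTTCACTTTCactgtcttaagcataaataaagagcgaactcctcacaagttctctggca
Gbp3, chr3:142559794-142560043, plus strand: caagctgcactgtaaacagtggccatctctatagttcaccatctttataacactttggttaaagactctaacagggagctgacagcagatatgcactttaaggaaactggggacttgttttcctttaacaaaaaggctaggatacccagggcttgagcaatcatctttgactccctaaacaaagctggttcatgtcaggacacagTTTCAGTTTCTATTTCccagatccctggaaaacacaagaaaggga
Gbp2b and Gbp2 held the same match, TTTCACTTTC, at different distances from the start. In Gbp2b it lay 137 to 128 bases before the start, and in Gbp2 it lay 59 to 50 bases before it. Gbp3 held TTTCAGTTTC and TTTCTATTTC, which overlap, within the last 45 bases. Such a match was present in 2.98% of the 32851 windows of this length before RefSeq gene starts. The core of the gamma-activated site, searched as TTC, any 3 bases and GAA, which reads the same on both strands, was in none of these 3 windows and in 7.02% of all windows. The window before a later start of Gbp3, and that before Ifi44l, a gene described further on, held neither motif. Those before Gbp5 and Gbp7, family members not analysed here, held both. A match is a description of the letters and not evidence of binding.

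Values are log2 ratios of mouse over pool, so that 0 is the level of the pool and 1 unit is a doubling on the reading of the deposited values as log10. Some arrays stood apart. On 48 arrays 9 genes of epididymal epithelium were high together, and 153 arrays, these 48 among them, had a high level of the Y-linked gene Eif2s3y. Over all probes 944 of 43365 pairs of arrays correlated below -0.3, the lowest at -0.52, and each such pair had 1 of these 48 arrays on 1 side. These 48 are called the epididymis arrays below, and counts that moved most without them are given both ways. In whole tissue, fewer cells of a type and less RNA per cell cannot be told apart.

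Gbp2b fell into separate groups of mice. Its lowest value was -5.22, its median 0.02 and its highest 2.05, with an SD of 2.10 that ranked 42 among the 11454 genes. A kernel density split the mice at an empty stretch into 79 mice between -5.22 and -2.84 (median -4.20) and 216 mice between -1.40 and 2.05 (median 0.32). The 3 highest mice of the lower class had -2.88, -2.87 and -2.84, and the 3 lowest of the upper class had -1.40, -1.26 and -1.05. The class medians lay 4.52 apart, which is a 22.9-fold difference on the log10 reading, and 3.90-fold or 2.57-fold if the deposited values were natural or log2 ratios. Which class is low rests on reading the ratios as mouse over pool, and turned round the 79 mice would be the high class. Read as log10 of mouse over pool, the mean linear ratio of Gbp2b over mice was 1.09, near the 1 that a pool of equal portions gives. Turned round it was 5.57. For Gbp2 it was 1.15, and turned round 0.98, which is nearer 1. Read as natural or log2 ratios of mouse over pool, Gbp2b gave 0.92 on both scales, so these means do not settle the scale. The classes held 90.7% of the variance of Gbp2b. Of all genes 19.3% had more than 1 density class, but only 0.253%, or 29 genes, had a gap of at least 1 log2 unit with at least 5% of the mice on each side.

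The lower class held 26.8% of the mice (95% exact binomial interval 21.8 to 32.2, counting error only), and 25% of 295 is 73.75 mice. It held 23 of the 105 mice with high Eif2s3y outside the epididymis arrays (21.9%), 43 of the 142 with low Eif2s3y (30.3%) and 13 of the 48 epididymis arrays (27.1%). By tertile of mouse number the share was 27.6%, 18.4% and 34.3%. The exact intervals of these shares overlap, though those of the middle tertile (11.3 to 27.5) and the upper tertile (25.1 to 44.6) only narrowly. Overlap does not show that shares are equal, and no difference between the sets or tertiles was tested. A mixture of 3 Gaussians with equal spread put 175 mice of the upper class around 0.14 and 41 around 1.24. Its BIC, where higher is better, was -934.2 against -939.4 for 2 Gaussians, but with unequal spreads 3 and 2 Gaussians had nearly the same BIC (-938.2 and -938.4).

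Gbp2 showed no such classes. Its values ran from -1.22 through a median of 0.10 to 1.31, with an SD of 0.50, and both the density and the BIC gave 1 class. It was lower on the epididymis arrays, with a mean of -0.34 ± 0.43 (SD, n = 48), than in the other mice with high Eif2s3y, 0.11 ± 0.41 (n = 105), or in those with low Eif2s3y, 0.28 ± 0.49 (n = 142), and the ranges of all 3 sets overlapped. The 2 further measured members of an 11-gene family list also had 1 class. Gbp3, the nearest measured gene on the other side of Gbp2b, ran from -1.36 to 1.29. Gbp8, on chromosome 5, had a median of 0.03, an SD of 0.72 and a highest value of 2.18. The remaining 7 members of the list were not analysed here.

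**Figure D1:**
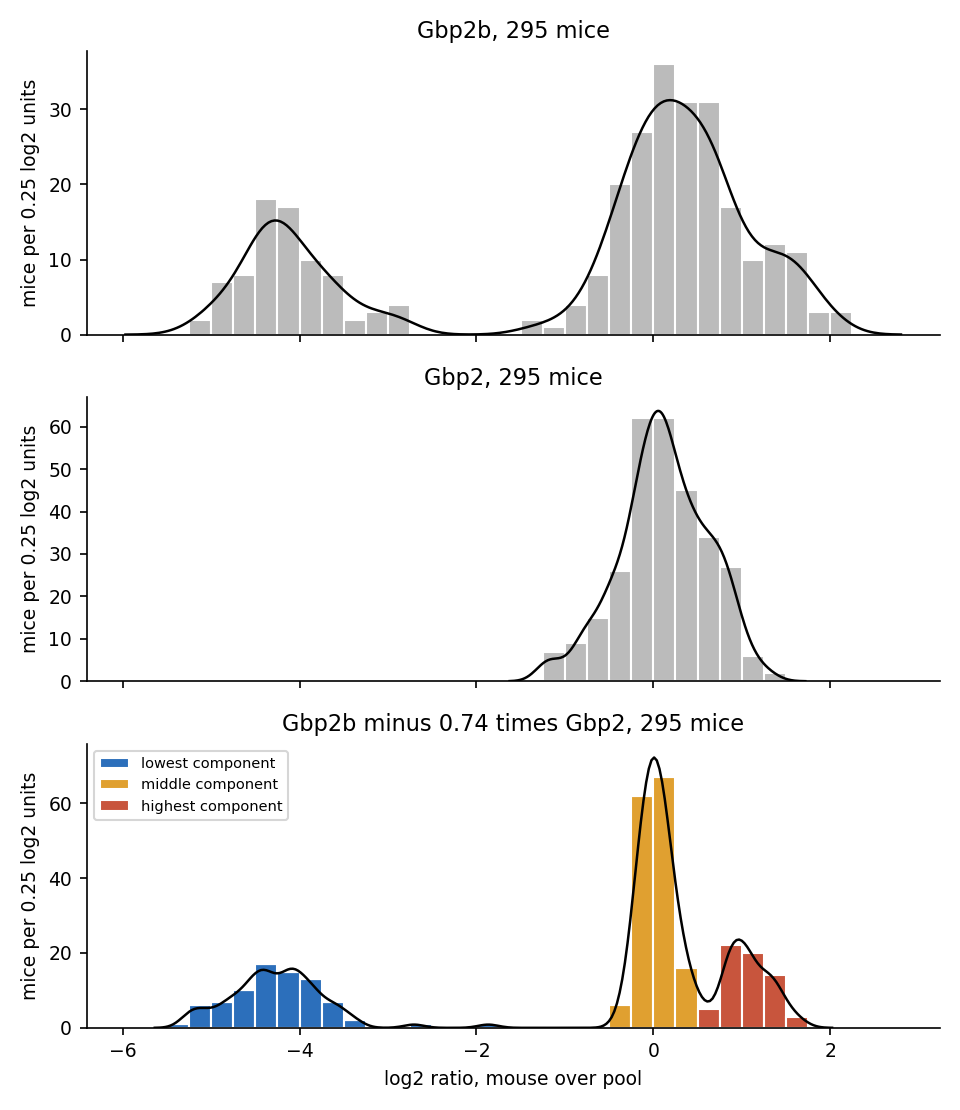
Histograms of Gbp2b, of Gbp2 and of Gbp2b less 0.74 times Gbp2 in 295 mice. The horizontal axis is the log2 ratio of mouse over pool, bars count mice per 0.25 units and lines are kernel densities. Gbp2b leaves an empty stretch between -2.84 and -1.40, and Gbp2 has 1 peak. In the lowest panel the mice above that stretch part into 151 and 64, with 1 more in the lowest component.

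Gbp2 was not called with Gbp2b over all mice, but it followed Gbp2b inside each class. The slope of Gbp2 on Gbp2b over all mice was 0.02 ± 0.01 (SE), with an adjusted p of 0.80 by limma with Benjamini-Hochberg adjustment over all probes. With the density class as a factor the slope was 0.45 ± 0.04 and the adjusted p was 1.96e-23. Because the mice lie in separate clusters, no correlation over all mice is given. In the 79 mice of the lower class Pearson's r was 0.43 (permutation p = 9e-05, adjusted 1.16e-04) and Spearman's rho 0.33 (permutation p = 0.00274, adjusted 0.00308). In the 216 mice of the upper class r was 0.62 and rho 0.65, each with a permutation p of 1e-05, the smallest that 100000 permutations can give (adjusted 1.5e-05, two-sided). With the 2 mice most distant from the Gbp2b median left out, r was 0.45 in the lower class and 0.63 in the upper.

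Gbp3 and Gbp8 also followed Gbp2b inside its classes. Gbp3 with Gbp2b had r = 0.44 in the lower class (permutation p = 7e-05, rho 0.42) and 0.63 in the upper (permutation p = 1e-05, rho 0.65). Gbp8 with Gbp2b had r = 0.32 in the lower class (permutation p = 0.00434, rho 0.28) and 0.46 in the upper (permutation p = 1e-05, rho 0.46). Among the genes without classes, Gbp2 and Gbp3 had r = 0.72 over all 295 mice, Gbp3 and Gbp8 had 0.65, and Gbp2 and Gbp8 had 0.44, each with a permutation p of 1e-05. All 9 relations passed at 0.05 after Benjamini-Hochberg adjustment, the largest adjusted permutation p being 0.0046 for r and 0.0125 for rho. Within the sets of arrays the relation of Gbp2b with Gbp8 in the lower class did not hold, at -0.31 in 23 mice with high Eif2s3y, 0.38 in 43 with low Eif2s3y and 0.76 in 13 epididymis arrays, and 0.18 without the epididymis arrays. Gbp2b with Gbp2 kept its sign in every set, from 0.18 to 0.69 in the lower class and from 0.32 to 0.67 in the upper, and was 0.34 and 0.58 without the epididymis arrays. Guanylate-binding genes are close paralogs and the probe sequences were not used here, so signal shared between the copies was not tested.

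Plotted against Gbp2, the upper class of Gbp2b split into 2 parallel bands of mice. To describe them, the within-class slope of Gbp2b on Gbp2, 0.74, was removed, a step chosen after the values were seen. The Gaussian mixture with the best BIC then had 3 components, with a BIC of -686.9 against -825.8 for 2 and -699.6 for 4. They held 80 mice (27.1%, 95% exact interval 22.1 to 32.6), 151 mice (51.2%, 45.3 to 57.0) and 64 mice (21.7%, 17.1 to 26.8). The component means were -4.25, 0.03 and 1.06, with SDs of 0.56, 0.17 and 0.27. The lowest component was the lower density class together with the mouse at -1.40, and the other 2 divided the rest of the upper class.

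The values of Gbp2b itself overlapped between the middle component (-1.26 to 1.19, median 0.10) and the highest component (-0.08 to 2.05, median 1.17). Gbp2 had medians of 0.25, 0.08 and 0.09 from the lowest to the highest component, with overlapping ranges. Within the middle component r between Gbp2b and Gbp2 was 0.93 and within the highest 0.86, against 0.42 in the lowest; the choice of components raised these values, so they are no test. Removing the slope on Parp9 in place of Gbp2 gave 79, 159 and 57 mice, and the plain difference of Gbp2b and Gbp2 gave 80, 151 and 64. With Gbp3 there were 4 components, of 77, 3, 162 and 53 mice. Without the epididymis arrays the components held 66, 128 and 53 mice, and each tertile of mouse numbers taken alone also gave 3 components. The bands were not fully apart: between the upper 2 modes the density fell to 29.6% of the lower mode's height, and at 1.5 times the bandwidth to 53.9%. This density gave 4 classes rather than 3, of 40, 40, 155 and 60 mice. Between its lowest 2 modes it fell only to 93.8% of the lower mode's height. At 1.5 times the bandwidth it gave 3 classes, of 80, 155 and 60 mice.

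**Figure D2:**
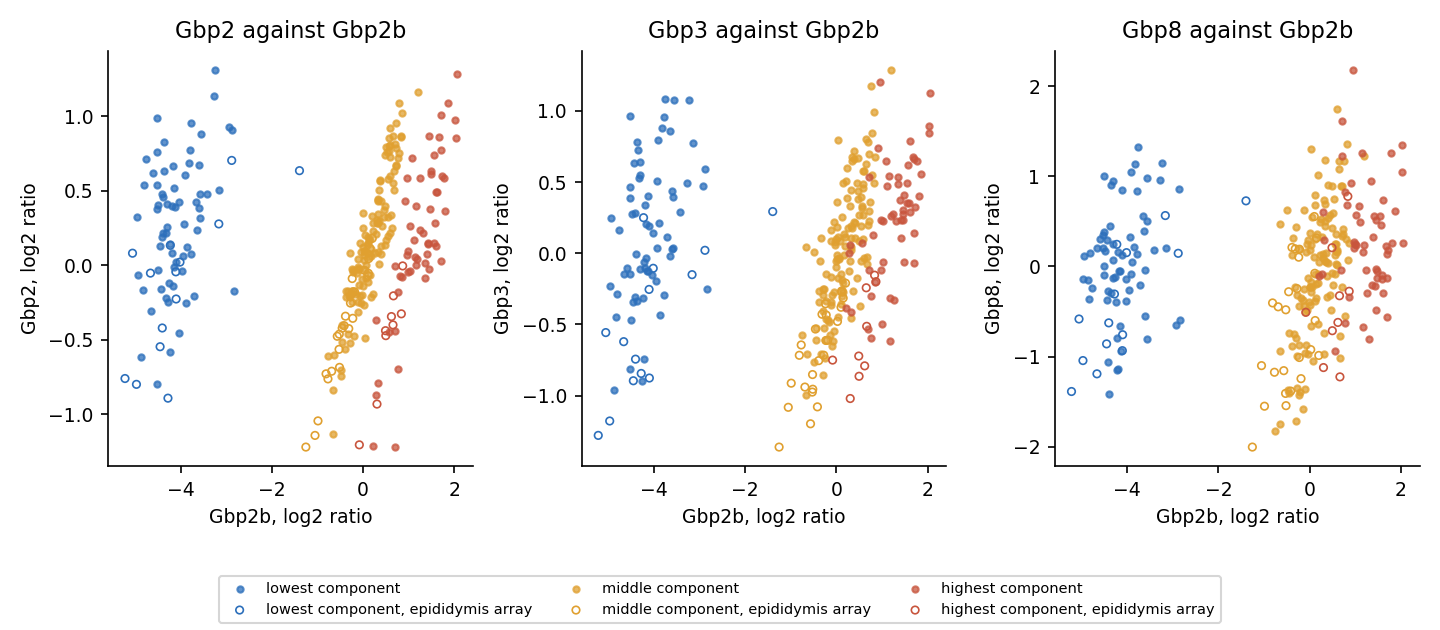
Log2 ratios of Gbp2, Gbp3 and Gbp8 (vertical axes) against Gbp2b (horizontal axes), 1 point per mouse, coloured by component, with open points for the 48 epididymis arrays. In the panel of Gbp2 the middle and highest components form 2 parallel bands, with r of 0.93 and 0.86. Of the lowest component 79 mice lie apart, at -2.84 and lower, and 1 lies at -1.40, near the middle component.

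Most named genes that followed Gbp2b over all mice lay on chromosome 3. In the limma fit 55 probes were called at an adjusted p under 0.05, 0.240% of 22893. They included 28 named genes, 0.244% of 11453, with 0.148% rising and 0.0960% falling, of which 18 lay among the 522 other genes measured on chromosome 3 (3.45%). The remaining 27 called probes had no symbol or were not the chosen probe of their gene. Of the 18 chromosome 3 genes, 11 rose with Gbp2b (2.11%) and 7 fell (1.34%).

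Ifi44l, an interferon-induced antiviral gene 24 measured genes beyond Gbp2b, followed it most closely. Its values ran from -3.20 to 2.17, and over the lowest, middle and highest component its medians were -1.94, 0.13 and 0.83. It rose by 0.46 ± 0.02 log2 units per unit of Gbp2b (SE, adjusted p = 1.42e-65). Its own density had 2 classes, of 86 mice up to -0.98 and of 209 from -0.87. The classes of the 2 genes did not match in every mouse: 7 of the 80 mice of the lowest Gbp2b component were in the upper Ifi44l class, and 13 of the 151 in the middle component were in the lower. None of the 64 mice in the highest component was in the lower Ifi44l class, which by counting allows a share of up to 4.69%. Inside the upper class r between Ifi44l and Gbp2b was 0.55 (limma adjusted p = 1.34e-15), and inside the lower 0.24, which did not pass. The upper class pools the middle and highest components, within which r was 0.30 and 0.41. Ifi44l was not called with Gbp2, at a slope of 0.05 ± 0.14 and an adjusted p of 0.77.

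Prss12, which encodes the serine protease neurotrypsin and lies 51 measured genes before Gbp2b, moved the other way. It fell by 0.17 ± 0.02 per unit of Gbp2b (adjusted p = 2.92e-10), and its medians over the components were 0.18, -0.17 and -0.93, with ranges that overlapped. Inside the upper class its r with Gbp2b was -0.62 (adjusted p = 1.03e-20) and inside the lower class 0.01 (adjusted p = 0.96), a difference between classes that was not tested. Within the middle and highest components r was -0.46 and -0.53. Prss12 also fell with Gbp2, by 0.52 ± 0.09 (adjusted p = 3.37e-07), but not without the epididymis arrays (0.138). Manba, the lysosomal beta-mannosidase, fell by 0.06 ± 0.01 (adjusted p = 4.53e-05). Adh1, the class I alcohol dehydrogenase, fell by 0.07 ± 0.01 (adjusted p = 5.04e-06) and rose with Gbp2 instead, by 0.38 ± 0.05 (adjusted p = 1.51e-13). Tmod4, a tropomodulin that caps actin filaments in muscle, rose by 0.06 ± 0.01 (adjusted p = 8.94e-05) although it lies 191 measured genes away.

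**Figure D3:**
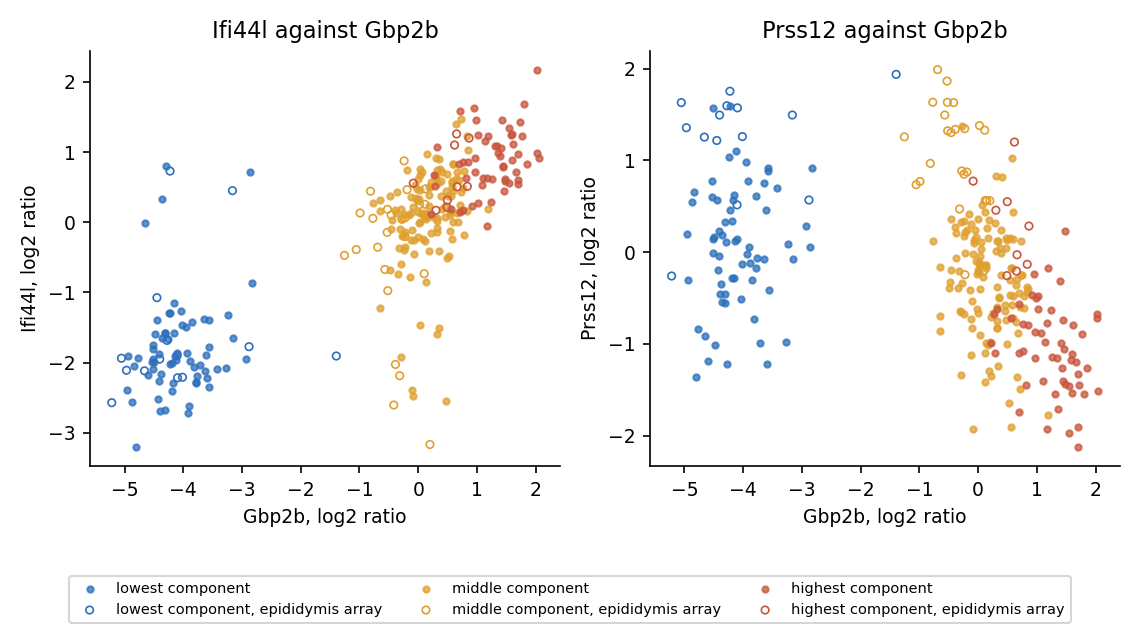
Log2 ratios of Ifi44l and Prss12 (vertical axes) against Gbp2b (horizontal axes), 1 point per mouse, coloured by component, with open points for the 48 epididymis arrays. Ifi44l rises over the components, with medians of -1.94, 0.13 and 0.83, and a few mice sit with another component; Prss12 falls, with medians of 0.18, -0.17 and -0.93.

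The nearest genes were not the ones called. Among the 20 nearest measured genes, 10 on each side, 0 were called by limma, and 8 had an unadjusted p under 0.05. Those 20 include Gbp3 and Gbp2 themselves. An unadjusted p under 0.05 was also found for 11 of the 30 genes 11 to 25 places away. It was found for 92 of all 522 chromosome 3 genes and for 903 of all 11453 genes. Among the 30 genes 11 to 25 places away 7 were called, and among the 46 genes 26 to 50 places away 2. Farther out 1 of 50, 5 of 100 and 3 of 276 were called. Gbp2b lies towards one end of the measured order, with 476 measured genes before it and 46 after. Without the epididymis arrays 11 chromosome 3 genes were called, among them Ifi44l (adjusted p = 1.12e-64), Prss12 (7.91e-11), Adh1 (2.24e-07) and Manba (4.35e-04).

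**Figure D4:**
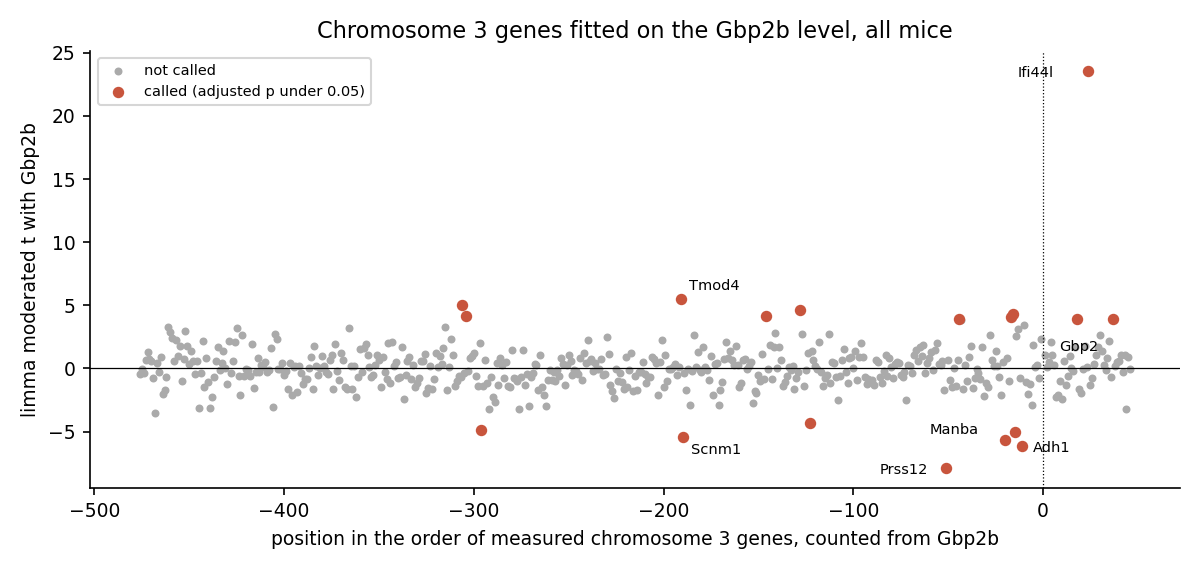
Moderated t of each measured chromosome 3 gene in the limma fit on Gbp2b over all mice (vertical axis) against its place in RefSeq gene order counted from Gbp2b (horizontal axis). Of 522 genes 18 are called (red), with Ifi44l far above the others and Prss12 lowest, while Gbp2, next to Gbp2b, is not called.

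With Gbp2 the share called on chromosome 3 was near that of all genes. The fit on Gbp2 over all mice called 12082 probes, 52.8% of 22893, and 55.0% of genes, and on chromosome 3 it called 58.6%. Of the 15 nearest genes other than Gbp2, 8 places to each side of Gbp2b, 7 rose with Gbp2 and 4 fell, while with Gbp2b 0 were called by limma (lowest adjusted p = 0.446). Besides Gbp3, Eif4e, the cap-binding translation factor, rose with Gbp2 by 0.35 ± 0.03 (adjusted p = 2.69e-29) and Tspan5, a tetraspanin, fell by 0.30 ± 0.05 (adjusted p = 2.05e-07).

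Most measured interferon-induced genes rose with Gbp2 over all mice. Of all genes 29.3% rose with Gbp2 and 25.6% fell. All 6 measured immunity-related GTPases rose, among them Iigp1 by 0.95 ± 0.07 (adjusted p = 3.15e-32) and Irgm1 by 0.43 ± 0.03 (5.13e-31). Of 27 type I interferon-induced genes 23 rose and 2, Oas3 and Xaf1, fell. Ifit3 rose by 0.76 ± 0.04 per unit of Gbp2 (adjusted p = 9.48e-49), Ifit2 by 0.60 ± 0.03 (3.60e-47) and Ifih1, the viral RNA sensor MDA5, by 0.46 ± 0.03 (5.40e-46). Of the 12 genes of MHC class I antigen processing and presentation 11 rose, led by Erap1, the peptide-trimming aminopeptidase, by 0.57 ± 0.03 (6.01e-44). Of 17 interferon gamma-induced genes 9 rose, among them the T cell chemokine Cxcl9 by 0.89 ± 0.07 (2.49e-31), and 1, Ido1, fell; Ido1 was not called without the epididymis arrays (adjusted p = 0.971). Of 15 genes of interferon signalling 4 rose and 2 fell, and without the epididymis arrays 4 rose and 7 fell.

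The single gene nearest to Gbp2 was Parp9, an interferon-induced macrodomain protein, with a slope of 0.54 ± 0.02 (adjusted p = 3.67e-66). The 9 that came next by moderated t were Thap12, Chchd3, Casp12, Ifit3, TRMT5, Ifit2, Ifih1, Ipo11 and Gbp3. Not all are known as interferon-induced genes: Chchd3 is a mitochondrial inner membrane protein, Ipo11 a nuclear import receptor, and TRMT5 (a symbol the array gives in capitals) a tRNA methyltransferase.

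Other cell types moved with Gbp2 as well. All 10 measured adipocyte genes rose with it, as did 8 of 11 endothelial genes, and all 9 epididymal and all 11 epithelial genes fell. Pparg, the master regulator of adipocytes, rose by 0.54 ± 0.04 (adjusted p = 2.83e-33) and Emcn, an endothelial sialomucin, by 0.45 ± 0.03 (1.88e-34). Of 18 macrophage genes 1 rose and 8 fell, of 16 T and natural killer cell genes 8 rose, and of 9 B cell genes 2 fell. Over all genes the shares were 29.3% rising and 25.6% falling, and the B cell count lay near the latter. With Eif2s3y as a covariate 6 macrophage genes rose and 4 fell, where 29.5% of all genes rose and 31.0% fell. When the arrays' leading principal component was held, 4 of the 10 adipocyte genes rose and, of the 15 signalling genes, 4 rose and 7 fell, where 24.4% of all genes rose and 35.4% fell. The part of these cell types in the interferon counts was not tested. Without the epididymis arrays 22.4% of all genes rose and 28.6% fell. There 16 of the 27 type I genes rose and 3 fell, and 7 of the 17 interferon gamma genes rose and 2 fell. Of the 6 immunity-related GTPases 5 rose, and of the 12 MHC class I genes 7 rose. Of the other lists 7 of the 10 adipocyte genes rose, 5 of the 11 endothelial genes rose and 2 fell, 3 of the 16 T and natural killer cell genes rose and 2 fell, and 10 of the 18 macrophage genes fell. Of the 9 epididymal genes 3 fell, and of the 11 epithelial genes 0 were called by limma, with 2 at an unadjusted p under 0.05.

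With the level of Gbp2b over all mice 0 of the 27 type I genes, a list that does not hold Ifi44l, were called by limma. An unadjusted p under 0.05 was found for 9 of them, and for 903 of all 11453 genes. With ranks of Gbp2b, which take away the distance between the classes, 20 of them were called over all mice. Among the interferon lists 3 genes were called with the level of Gbp2b: the GTPase Igtp (0.06 ± 0.01, adjusted p = 0.0175), the chemokine Cxcl10 (0.08 ± 0.02, 0.0250) and Ifng, the interferon gamma gene itself (0.07 ± 0.02, 0.0321). None of these 3 stayed called without the epididymis arrays, with adjusted p-values of 0.0793, 0.353 and 0.490.

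With the density class as a factor 7679 probes were called, 33.5% of 22893, and 36.5% of genes, 20.8% upward and 15.6% downward, with 37.4% of chromosome 3 genes. There 22 of 27 type I genes, all 6 immunity-related GTPases, 10 of 17 interferon gamma genes and 11 of 12 MHC class I genes rose with Gbp2b. In the type I and interferon gamma lists 1 gene each fell. Leading genes were Gbp3 (slope 0.47 ± 0.04, adjusted p = 1.41e-23), Gbp2, Igtp (0.48 ± 0.04, 3.85e-23), Cxcl9 (0.62 ± 0.05, 1.15e-21), Tgtp1 (0.61 ± 0.05, 1.36e-21) and Iigp1 (0.65 ± 0.06, 4.67e-21). Of the T and natural killer cell genes 12 of 16 rose, among them granzyme B, Gzmb (0.18 ± 0.03, 1.03e-08), and 9 of 10 adipocyte genes rose while all 9 epididymal genes fell. Without the epididymis arrays, where 16.8% of genes were called, 9.46% rising and 7.33% falling, 19 of 27 type I genes, 5 of 6 GTPases, 6 of 17 interferon gamma genes and 10 of 12 MHC class I genes rose. So did 5 of 16 T and natural killer cell genes, 3 of 10 adipocyte genes and 1 of 9 epididymal genes, and no epididymal gene fell.

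The classes were also fitted alone, and their sizes differ. The lower class held 13 of the 48 epididymis arrays and the upper class 35, and neither was fitted alone without them. In the upper class the mean of Gbp2b was -0.18 on these arrays, 0.32 in the other mice with high Eif2s3y and 0.65 in those with low Eif2s3y. In the 79 mice of the lower class 460 probes were called (2.01%), and 2.20% of genes, with 1.95% rising and 0.253% falling. On chromosome 3 the share of genes called was 2.11%. There 5 of 6 immunity-related GTPases, 10 of 27 type I genes, 7 of 17 interferon gamma genes, 7 of 12 MHC class I genes, 3 of 7 MHC class II genes, 4 of 9 B cell genes and 9 of 16 T and natural killer cell genes rose. In that class 0 of the 9 epididymal and 0 of the 10 adipocyte genes were called by limma, and none of either list had an unadjusted p under 0.05. In the 216 mice of the upper class 7729 probes were called (33.8%) and 36.7% of genes, with 20.4% rising and 16.2% falling. On chromosome 3 the share was 36.4%. There 5 of 6 GTPases, 20 of 27 type I genes, 9 of 17 interferon gamma genes, 11 of 12 MHC class I genes and 7 of 16 T and natural killer cell genes rose, as did 9 of 10 adipocyte and 9 of 11 endothelial genes. All 9 epididymal genes, 7 of 18 macrophage genes, 1 type I gene and 1 interferon gamma gene fell. Of the 7 MHC class II genes 0 were called by limma, with 1 at an unadjusted p under 0.05, and of the 9 B cell genes 1 fell.

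Of the interferon genes compared between the classes, some had a higher r with Gbp2b in the lower class, some in the upper, and some nearly the same in both. In the lower class Ifng had r = 0.74 with Gbp2b (rho 0.72, limma adjusted p = 3.86e-11), Igtp 0.72 (rho 0.73, 5.24e-10) and Cxcl10 0.66 (rho 0.64, 1.43e-07). In the upper class the same genes had r = 0.30 (rho 0.32, 6.83e-05), 0.54 (rho 0.59, 1.25e-14) and 0.18 (rho 0.18, 0.0288). Ifit3 stood the other way, with r = 0.32 in the lower class (rho 0.32, adjusted p = 0.0886) and 0.62 in the upper (rho 0.63, 1.93e-20). Cxcl9 had 0.58 in the lower class and 0.55 in the upper (rho 0.58 in both), Iigp1 0.56 and 0.55 (rho 0.51 and 0.57) and Tgtp1 0.54 and 0.56 (rho 0.56 and 0.58). Leaving out the 2 mice farthest from the median, or the epididymis arrays, changed the sign of none of these values. The differences between classes were not tested, and the upper class holds the 2 bands described above.

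**Figure D5:**
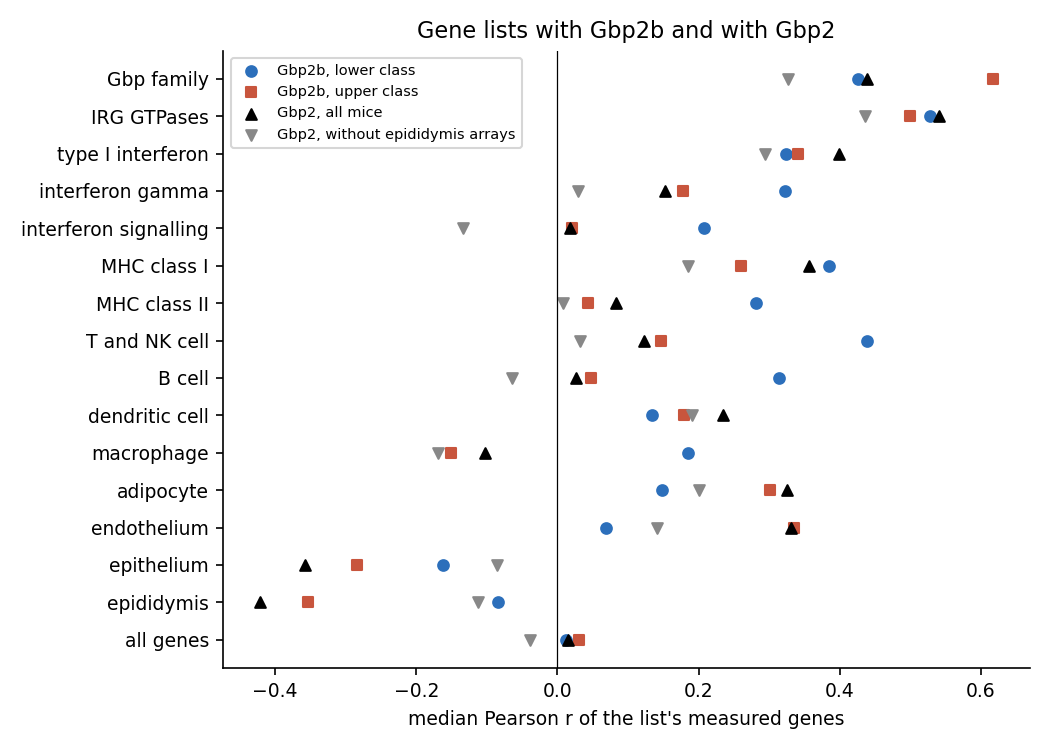
Median Pearson r of the measured genes of each list (rows) with Gbp2b in its lower and upper density class and with Gbp2 over all mice, with and without the epididymis arrays (horizontal axis). The type I interferon, IRG GTPase and MHC class I lists lie to the right of all genes in the 4 fits shown. So do the Gbp family, interferon gamma, MHC class II, T and NK cell, dendritic cell, adipocyte and endothelium lists. The epididymal list has a median of -0.42 with Gbp2 over all mice and of -0.08 with Gbp2b in the lower class.

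When both genes entered 1 fit, scaled to an SD of 1, the signed slopes on the 2 differed for 36.3% of probes and 38.7% of genes (43.0% on chromosome 3). The slope on Gbp2 was above that on Gbp2b for 20.5% of genes and below it for 18.3%, which include genes that fell more with Gbp2. It was above for 18 of the 27 type I genes and 4 of the 6 GTPases, and below for 1 type I gene, Oas3, which fell with Gbp2. For Ifit3 the difference of the slopes, Gbp2 minus Gbp2b, was 0.33 ± 0.03 (adjusted p = 4.14e-22). For Ifi44l, which is on none of the lists, it was -0.99 ± 0.06 (2.80e-40). On this scale 1 SD of Gbp2b is mostly the distance between its classes.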

How the data were processed

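Each array is 1 mouse by the number in its title. The log10 ratios of 23387 probes on 295 arrays were used as deposited by the authors, whose background correction and normalization are not given in the sources used here. Neither scale nor direction is stated. The values end at -2 and 2, and over probes the slope of mean on variance was -1.63, where log10 of mouse over a pool of equal portions gives -1.15. The sample text of the labels gives 330 mice and the series text 295, and for 1 sample the title and source name give different numbers (the title was used).

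Values were multiplied by 3.32 to log2. The 22894 probes with values on at least 90% of arrays were kept, and 7762 gaps were filled with the probe's mean. Through the platform annotation 13644 probes had 1 symbol, 48 several and 9695 none, and 12652 matched RefSeq. A gene is its most variable probe. Each probe was regressed on a gene's ratio with limma 3.58.1 (lmFit, eBayes), with Benjamini-Hochberg adjustment over all probes. Classes are the parts of a kernel density (Sheather-Jones bandwidth) that hold at least 5% of mice, and mixtures were fitted with mclust 6.1.1. The fits were also run on simulated probes drawn independently of each other, with known slopes added. Probes on these arrays vary together, so that run does not show how the fits behave here. The number of arrays limits the precision.

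Named were both genes, the measured family, the 10 leading genes of each fit, the 8 neighbours on each side, 5 further chromosome 3 genes and 3 leading genes per list; from these the text takes a part. Ifng, Cxcl10, Oas3, Xaf1 and Ido1 were added after their values were seen. The genes and lists were chosen with earlier results of these data known. Alternatives removed array medians, left out the epididymis arrays, took Eif2s3y, the first principal component or the tertile of mouse number as a covariate, used ranks, or dropped the filter on missing values.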

Additional observations from a re-analysis of the deposited data

How the results depend on the processing

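Leaving out the epididymis arrays lowered the probes called with Gbp2b from 55 to 36, those called within its classes from 7679 to 3522, and the chromosome 3 genes from 18 to 11. With Gbp2b turned into ranks 2903 probes, 102 chromosome 3 genes and 20 type I genes were called over all mice, and the slope of Gbp2 on ranked Gbp2b was 0.14 (adjusted p = 1.50e-04); ranks remove the distance between the classes. The lower class alone, an alternative added after the data were seen, gave 460 probes and 10 type I genes within it. With 0.5 times the bandwidth Gbp2b had 4 classes and Gbp2 had 3, and in the middle tertile of mouse numbers Gbp2 had 2. The lower Gbp2b class held 18.4% of the mice in the middle tertile and 34.3% in the upper. Removing the slope on Gbp3 in place of Gbp2 gave 4 components. The other alternatives kept each of these counts within 1.5 times its value, and apart from the ranks kept the direction and the call of both slopes of Gbp2 on Gbp2b. Using another Gbp2 probe was not run, since 1 was measured. No paired analysis was possible because the mice form 1 group. Fold sizes rest on the log10 reading, and which mice are high or low rests on the direction. Turning every ratio round would leave the correlations and slopes between genes as they are.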
